A study of Homo sapiens with 4 samples.

Results

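The genes described here encode the machinery through which proteins enter the endoplasmic reticulum (ER): the signal recognition particle (SRP) and its receptor, the SEC61 translocon with its partners, signal peptidase, and the routes for membrane proteins that insert by other means. The list held 39 genes. Members were taken by name, and 36 of them had a probe set whose platform annotation gave exactly 1 symbol, among 22411 genes measured that way. Each of the 36 had 1 such probe set, so no choice between probe sets was needed. HM13 was left out because its probe set names a further gene, and no level was analysed for SRP19 and SEC61G, for which the rule of 1 symbol gave no probe set.

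The data were 4 Affymetrix arrays of HCT116, an established human colon carcinoma line. The cells had been transiently transfected with a plasmid expressing PRSS8 (2 arrays) or with the vector control (2 arrays), so both groups were transfected. PRSS8 encodes prostasin, a membrane-anchored serine protease that itself enters the ER on its way to the cell surface. Replicates are numbered 1 and 2 in both groups and labelled as biological; nothing in the labels says whether equal numbers share a culture or a day, and p-values measure only the spread between these arrays. The time after transfection, the promoter of the plasmid and the share of cells that took it up are not given in the sources used here. An RNA level is an average over the culture, so fewer cells of a kind and less RNA per cell cannot be told apart.

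PRSS8 stood at 10.45 and 11.18 on the control arrays and at 18.55 and 18.07 on the PRSS8 arrays (log2 level, replicates 1 and 2), which matched the labels. The keratins KRT8, KRT18 and KRT19 and the epithelial adhesion gene EPCAM lay between 9.46 and 15.05 on every array, while CDX2 and LGALS4, markers of differentiated colon epithelium, lay between 3.25 and 4.03, near the array medians of 3.60 to 3.92. All 5 fibroblast and all 4 endothelial markers measured had mean levels of 3.26 to 4.02. Of 4 leukocyte markers, 3 were at that level, among them the defining marker PTPRC, and CD68, a lysosomal protein made by many cell types, was at 7.23 and 8.11 on the control and 8.47 and 9.44 on the PRSS8 arrays. Arrays of the same number resembled each other most: over all genes, the replicate 1 arrays correlated at 0.996 and those of replicate 2 at 0.989 (Pearson's r), the control arrays at 0.930. For that reason every difference is given within replicate 1 (pair 1, PRSS8 minus control) and within replicate 2 (pair 2) as well as over all arrays.

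Most secreted and membrane proteins carry an N-terminal signal sequence. SRP binds that sequence as it leaves the ribosome, docks at its receptor on the ER membrane and hands the ribosome to the SEC61 channel, where the translocon-associated protein (TRAP) complex assists and signal peptidase cuts the signal off. Tail-anchored proteins, whose membrane segment lies at the C-terminal end, use the GET route instead, and the ER membrane protein complex (EMC) inserts other weakly hydrophobic segments. In secretory cells many of these genes are known targets of the unfolded protein response, the program that raises the capacity of the ER when unfolded proteins accumulate.

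In these cells 24 of the 36 genes were higher with PRSS8 in both pairs (66.7%), 1 was lower in both and 11 took opposite signs. The background for that count was 26.0% of all genes and 38.0% of the 5788 genes whose mean level was 6 or more, and 31 of the 36 genes were in that brighter class. At least 1.5-fold higher in both pairs were 5 genes, SRP54, SRP72, SEC61B, SSR3 and TRAM1, or 13.9% against a background of 0.460% of all genes and 1.66% of the brighter ones. The median difference over the 36 genes was 0.27 (log2; 0.09 in pair 1 and 0.38 in pair 2), where all genes had a median of 0.00062 and the brighter genes one of 0.10 (−0.02 in pair 1, 0.22 in pair 2). Without control replicate 2 the median over the 36 genes was −0.16 and without control replicate 1 it was 0.63, as either omission leaves the replicate numbers unbalanced. The median of the brighter genes was above 0 in pair 2. With the sign kept, 29 of the 36 members had a higher difference in pair 2 than in pair 1 (80.6%). That held for 53.1% of all genes and 76.7% of the brighter ones.

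No member passed the adjusted threshold of 0.05. The main limma fit left out the replicate number, so its SEs and intervals include the distance between the numbers. In it 0 of the 36 had an adjusted p under 0.05, as did 0.00% of all genes. An unadjusted p under 0.05 was found for 0 members and for 42 of all 22411 genes. Every member had an adjusted p of 1 after rounding, and the smallest unadjusted p, that of SEC61B, was 0.15 (limma). With the replicate number as a block, 0 members were called (smallest adjusted p = 0.94, limma). In that fit 9 of the 36 members and 1174 of all 22411 genes had an unadjusted p under 0.05. With 2 arrays a group, the smallest p of a two-sided exact permutation test is 0.333. Of the 26 members named by rule, 16 changed the sign of their difference when 1 of the 4 arrays was left out, and 10 did not. A gene whose groups do not overlap was named for that and, by arithmetic, keeps its sign. That fixed the outcome for SEC61B, SRPRA, SRPRB, SEC11C, SEC61A1, GET1 and EMC7. Of the 10, only SRP68, SSR3 and SERP1 had groups that overlapped. The share over all genes was not counted. The values that follow are therefore descriptions of 4 arrays, with the moderated standard error (SE) of each difference or its 95% interval.

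**Figure D1:**
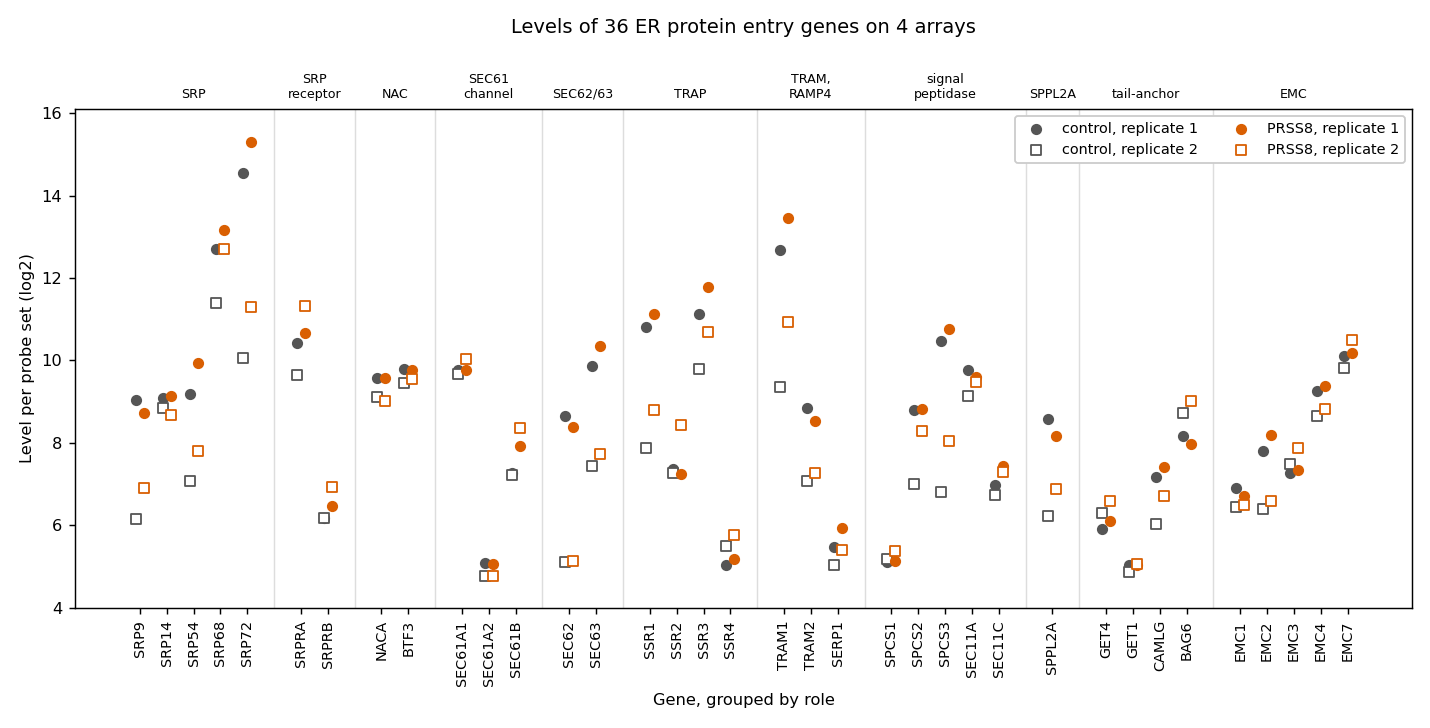
Level of each of the 36 genes on each array (vertical axis, log2; filled circles replicate 1, open squares replicate 2, grey control, orange PRSS8), grouped by role. In SRP72, TRAM1, SPCS3 and SEC62 the replicate numbers lie further apart than the groups, while the 2 orange points of SEC61B lie above both grey ones; levels of different genes come from different probes and are not comparable.

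SEC61B encodes the small beta subunit of the SEC61 channel. Its probe set (TC09000502.hg.1) read 7.26 and 7.21 on the control arrays and 7.93 and 8.36 on the PRSS8 arrays. The lowest PRSS8 array was 0.67 above the highest control array. SEC61B was the only member whose groups stood at least 1.5-fold apart (0.0714% of all genes and 0.276% of the brighter ones did). The group means were 7.24 ± 0.03 and 8.14 ± 0.31 (log2 level, SD, n = 2 each), a difference of 0.91 (SE 0.54, 95% interval −0.49 to 2.31) or 1.88-fold, with 1.59-fold in pair 1 and 2.22-fold in pair 2.

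The other channel subunits differed less. SEC61A1, the pore-forming alpha subunit, read 9.76 and 9.68 on the control and 9.77 and 10.04 on the PRSS8 arrays. Its groups did not overlap, but the gap was 0.0024, and the difference was 0.0024 in pair 1 and 0.36 in pair 2. SEC61A2, the second gene for an alpha subunit, read 5.07 and 4.77 against 5.06 and 4.76, so each PRSS8 array lay within 0.02 of the control array of its own number. It was the only member that was lower in both pairs (24.5% of all genes were), by 0.01 in each, and its 95% interval was −0.62 to 0.59.

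SEC62 and SEC63 are channel partners that open it for proteins delivered after their synthesis, and SEC63 recruits the ER chaperone BiP. SEC62 read 8.66 and 5.12 on the control arrays and 8.39 and 5.12 on the PRSS8 arrays, which put the replicate numbers 3.54 and 3.27 apart within the groups. Its difference was −0.27 in pair 1 and 0.0018 in pair 2. SEC63 read 9.86 and 7.44 against 10.34 and 7.73, a difference of 0.48 in pair 1 and 0.29 in pair 2. The groups of both genes overlapped, and the SEs of 1.61 and 1.32 exceeded the differences of −0.13 and 0.39.

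The SRP is a particle of an RNA and several proteins. SRP54, the subunit that binds the signal sequence, read 9.19 and 7.07 on the control arrays and 9.92 and 7.79 on the PRSS8 arrays. The pairs gave nearly the same value, 0.74 and 0.72 (1.67-fold and 1.65-fold), although the replicate numbers lay 2.12 apart in the control group. The SE of 1.15 in the fit over all arrays includes that distance.

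SRP68 and SRP72, which form a heterodimer on the SRP RNA, had the other large values. SRP72 read 14.54 and 10.05 on the control and 15.31 and 11.29 on the PRSS8 arrays, with differences of 0.77 in pair 1 and 1.24 in pair 2 (mean 1.01, SE 2.06). SRP68 read 12.71 and 11.40 against 13.16 and 12.70, with differences of 0.45 and 1.30 (mean 0.87, SE 0.81; 0.22 to 1.53 with any 1 array left out). The SRP68 groups overlapped by 0.01, as the control array of replicate 1 stood just above the PRSS8 array of replicate 2.

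The Alu-domain subunits SRP9 and SRP14, which together slow translation while the ribosome is being targeted, did not share that pattern. SRP9 read 9.05 and 6.16 on the control and 8.73 and 6.90 on the PRSS8 arrays, with differences of −0.32 in pair 1 and 0.75 in pair 2. SRP14 read 9.09 and 8.84 against 9.12 and 8.68, with 0.04 and −0.16. Of the 5 SRP proteins measured, 3 were thus higher in both pairs and 2 changed sign, and the class median was 0.45 in pair 1 and 0.75 in pair 2. The RNA component could not be compared, because RN7SL1 stood at the upper limit of each array, 19.93 on both replicate 1 arrays and 19.44 and 19.46 on the replicate 2 arrays.

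Both subunits of the SRP receptor were higher on both PRSS8 arrays than on either control array. SRPRA, the GTPase subunit that meets SRP54, read 10.42 and 9.65 on the control and 10.65 and 11.31 on the PRSS8 arrays. Its difference was 0.94 (SE 0.81, 95% interval −1.16 to 3.05), made of 0.23 in pair 1 and 1.66 in pair 2. SRPRB, the subunit that anchors the receptor in the membrane, read 6.16 and 6.17 against 6.47 and 6.93, a difference of 0.53 (SE 0.39) with 0.31 and 0.76. The 2 control arrays of SRPRB lay 0.01 apart, less than the gap of 0.30 between the groups.

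The nascent chain complex of NACA and BTF3 binds chains at the ribosome exit and keeps those without a signal away from the ER. NACA read 9.57 and 9.11 on the control and 9.58 and 9.02 on the PRSS8 arrays, and BTF3 read 9.80 and 9.46 against 9.76 and 9.55. Differences within the pairs ran from −0.09 to 0.09, and each gene took opposite signs in the pairs. Their 95% intervals, −1.93 to 1.85 and −1.85 to 1.90, leave room for larger differences, and signal from their near-identical copies such as NACA2 was not separated.

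Of the TRAP complex, which sits beside the channel and helps weak signal sequences, 3 of 4 subunits were higher in both pairs. SSR3, the gamma subunit, read 11.13 and 9.80 on the control arrays and 11.79 and 10.69 on the PRSS8 arrays, with 0.66 in pair 1 and 0.89 in pair 2 (mean 0.78, SE 0.93; 0.11 to 1.44 with any 1 array left out). SSR1, the alpha subunit, read 10.82 and 7.87 against 11.14 and 8.79, with 0.32 and 0.91 (mean 0.62, SE 1.41). SSR4, the delta subunit, differed by 0.15 and 0.25. SSR2, the beta subunit, was the exception: it read 7.35 and 7.27 on the control arrays, 7.23 on the PRSS8 array of replicate 1 and 8.43 on that of replicate 2, or −0.12 and 1.16. All 4 subunits differed more in pair 2, and the groups overlapped in each.

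TRAM1, a membrane protein next to the channel that nascent chains touch on entry, had the largest mean difference of the 36 genes. It read 12.68 and 9.36 on the control and 13.44 and 10.93 on the PRSS8 arrays, with 0.76 in pair 1 and 1.57 in pair 2 (1.69-fold and 2.97-fold; mean 1.17, SE 1.53, 95% interval −2.83 to 5.16). Its relative TRAM2 read 8.84 and 7.07 against 8.53 and 7.28, with −0.31 and 0.20. SERP1, also called RAMP4, a small protein of the translocon, read 5.47 and 5.03 against 5.92 and 5.40, with 0.45 and 0.38 (mean 0.41, SE 0.32). The PRSS8 array of replicate 2 stood 0.07 below the control array of replicate 1 for SERP1, so its groups overlapped by that amount.

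Promoter windows of some of these genes are shown because unfolded protein response factors bind known short motifs. Whether the motifs bear on the differences was not tested. RefSeq windows (GRCh38.p14, 250 bases before to 50 after a start site) were found for 33 of the 39 listed genes, 31 of them measured, in 43 windows. The ER stress element, CCAAT and CCACG with 9 bases of any kind between them, was in the window of 1 gene, SERP1, against 0.0769% of all 35116 windows, and the related element ERSE-II, ATTGG and CCACG with 1 base between them, in none, against 0.0541%. The element TGACGTGG, called UPRE and bound by XBP1 and ATF6, was in 1 window each of SSR3, SSR4, SEC62 and SRP19, or 9.30% of the windows of the listed genes against 0.729% of all windows. The amino acid response element TGATGNAA was in the window of SRPRB alone, against 3.62% of windows. Both strands were searched; the elements with CCACG may overlap with each other. The motifs were chosen with the members' values known, and a match describes letters, not a bound site. The windows of SEC61B (chr9:99222032-99222331, plus strand), SERP1 (chr3:150546447-150546746, minus strand), SSR3 (chr3:156554076-156554375, minus strand, 1 of its 3 windows), SSR4 (chrX:153794418-153794717, plus strand, 1 of its 2 windows) and SEC62 (chr3:169966557-169966856, plus strand) are given along the gene's own strand, with capitals marking the ER stress element in SERP1 and the UPRE in the others; both kinds of element are on the opposite strand here.
SEC61B: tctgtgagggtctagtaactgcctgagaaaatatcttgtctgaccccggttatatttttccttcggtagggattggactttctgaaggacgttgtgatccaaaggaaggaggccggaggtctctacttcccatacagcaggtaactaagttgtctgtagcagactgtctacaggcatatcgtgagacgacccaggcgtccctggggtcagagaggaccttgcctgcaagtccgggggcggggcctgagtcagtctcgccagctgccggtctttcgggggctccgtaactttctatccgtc
SERP1: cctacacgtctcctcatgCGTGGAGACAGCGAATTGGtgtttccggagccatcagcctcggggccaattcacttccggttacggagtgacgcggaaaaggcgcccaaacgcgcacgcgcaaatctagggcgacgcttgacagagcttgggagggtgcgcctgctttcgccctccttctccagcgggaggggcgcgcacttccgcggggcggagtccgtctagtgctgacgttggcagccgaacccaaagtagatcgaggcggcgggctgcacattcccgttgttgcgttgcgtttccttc
SSR3: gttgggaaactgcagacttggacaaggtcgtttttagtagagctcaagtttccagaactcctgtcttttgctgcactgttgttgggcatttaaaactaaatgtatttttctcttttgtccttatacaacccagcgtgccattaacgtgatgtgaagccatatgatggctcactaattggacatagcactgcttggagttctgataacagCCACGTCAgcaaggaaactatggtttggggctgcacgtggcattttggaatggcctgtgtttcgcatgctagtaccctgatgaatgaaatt
SSR4: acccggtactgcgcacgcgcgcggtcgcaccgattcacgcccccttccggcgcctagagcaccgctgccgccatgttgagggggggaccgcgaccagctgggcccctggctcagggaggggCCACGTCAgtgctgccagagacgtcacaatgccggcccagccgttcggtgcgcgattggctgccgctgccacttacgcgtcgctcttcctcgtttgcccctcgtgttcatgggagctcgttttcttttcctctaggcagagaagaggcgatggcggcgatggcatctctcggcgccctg
SEC62: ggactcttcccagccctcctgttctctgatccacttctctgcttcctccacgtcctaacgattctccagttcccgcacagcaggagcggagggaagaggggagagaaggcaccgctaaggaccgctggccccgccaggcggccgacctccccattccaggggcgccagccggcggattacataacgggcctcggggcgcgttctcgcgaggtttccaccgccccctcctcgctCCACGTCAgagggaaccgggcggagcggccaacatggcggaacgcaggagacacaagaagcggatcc
SEC61B, whose groups stood furthest apart, held none of the 4 motifs in this window. The element of SERP1 begins 232 bases before the start site and those of SSR3, SSR4 and SEC62 begin 41, 129 and 17 bases before theirs. Genes that carry the same UPRE letters had unlike values: SSR3 was 0.66 and 0.89 higher, SSR4 0.15 and 0.25, and SEC62 differed by −0.27 and 0.0018. Their mean levels were also unlike, 10.85 for SSR3, 5.37 for SSR4 and 6.82 for SEC62 (5.12 on both replicate 2 arrays). Whether the level of a gene limits its difference was not tested.

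**Figure D2:**
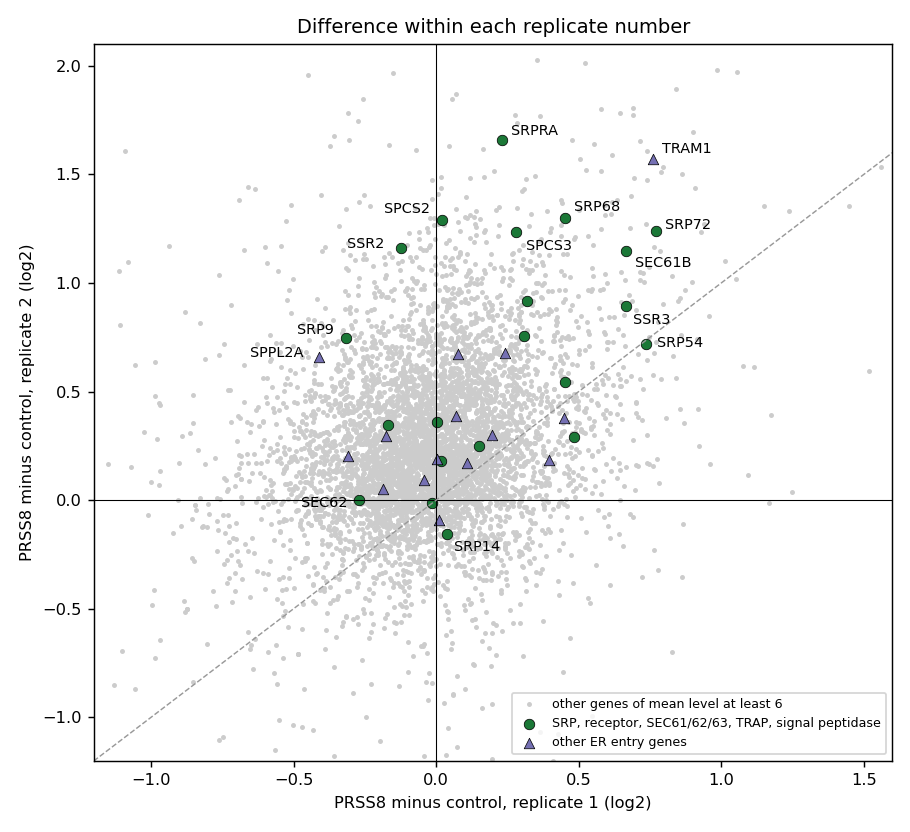
PRSS8 minus control within replicate 1 (horizontal, log2) and within replicate 2 (vertical, log2), for core ER entry genes (green circles), the other members (purple triangles) and other genes whose mean level was 6 or more (grey; 72 of 5757 lie outside the axes); the dashed line marks equal differences. Of the 36 members 24 lie in the upper right field, and SRP54, SRP72, SEC61B, SSR3 and TRAM1 lie at or beyond 1.5-fold on both axes.

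Signal peptidase removes the signal sequence once it is in the membrane. Its 2 catalytic subunits, SEC11A and SEC11C, are paralogs, and their difference from each other was not tested. SEC11C read 6.99 and 6.74 on the control arrays and 7.44 and 7.28 on the PRSS8 arrays, with 0.45 and 0.54 in the pairs (mean 0.50, SE 0.45), and its groups did not overlap. SEC11A read 9.76 and 9.13 against 9.60 and 9.48, with −0.17 and 0.35, and its groups overlapped. The accessory subunits were higher in both pairs, mostly through pair 2. SPCS2 read 8.81 and 6.99 on the control and 8.83 and 8.28 on the PRSS8 arrays, with 0.02 and 1.29 (mean 0.66, SE 0.85). SPCS3 read 10.48 and 6.81 against 10.76 and 8.05, with 0.28 and 1.24 (mean 0.76, SE 1.62). SPCS1 differed by 0.02 and 0.18. In SPCS2 and SPCS3 the control array of replicate 2 stood lowest of the 4, and the replicate 1 arrays stood highest in both groups.

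SPPL2A, an intramembrane protease of the signal peptide peptidase family, read 8.58 and 6.22 on the control and 8.16 and 6.87 on the PRSS8 arrays, with −0.41 and 0.66. Its pairs thus had opposite signs, with a mean of 0.12 (95% interval −2.48 to 2.73).

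Of the tail-anchor genes, 3 of 4 were higher in both pairs. The class medians were 0.10 in pair 1 and 0.30 in pair 2, beside −0.02 and 0.22 for the brighter genes. CAMLG, a receptor subunit of the GET route in the ER membrane, read 7.16 and 6.02 on the control and 7.40 and 6.70 on the PRSS8 arrays, with 0.24 and 0.68 (mean 0.46, SE 0.59). GET1, its partner, read 5.04 and 4.87 against 5.04 and 5.06, with 0.0044 and 0.19. The GET1 groups did not overlap, by a gap of 0.0044. GET4, a cytosolic factor that works with BAG6 ahead of the membrane step, differed by 0.20 and 0.30, and the chaperone BAG6 by −0.18 and 0.29.

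Of the EMC subunits, 4 of 5 were higher in both pairs and 1, EMC1, changed sign (−0.19 and 0.05). EMC7 read 10.10 and 9.81 on the control and 10.17 and 10.48 on the PRSS8 arrays, with 0.08 and 0.67, and its groups did not overlap (gap 0.08). EMC2 read 7.79 and 6.39 against 8.19 and 6.58, with 0.39 and 0.18. EMC3, the subunit that forms the insertion path, and EMC4 differed by 0.07 to 0.39 in the pairs. The class medians were 0.08 in pair 1 and 0.18 in pair 2, beside −0.02 and 0.22 for the brighter genes.

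Taking the classes together, both PRSS8 arrays stood above both control arrays in 7 of the 36 genes (19.4%): SRPRA, SRPRB, SEC61A1, SEC61B, SEC11C, GET1 and EMC7. The background was 5.53% of all genes and 6.12% of the brighter ones. In SEC61A1 and GET1 the gap was under 0.01 and in EMC7 it was 0.08, while in SRPRA, SRPRB, SEC11C and SEC61B it was 0.23 to 0.67. In 0 of the 36 genes did both PRSS8 arrays stand below both controls (5.56% of all genes and 2.21% of the brighter ones).

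**Figure D3:**
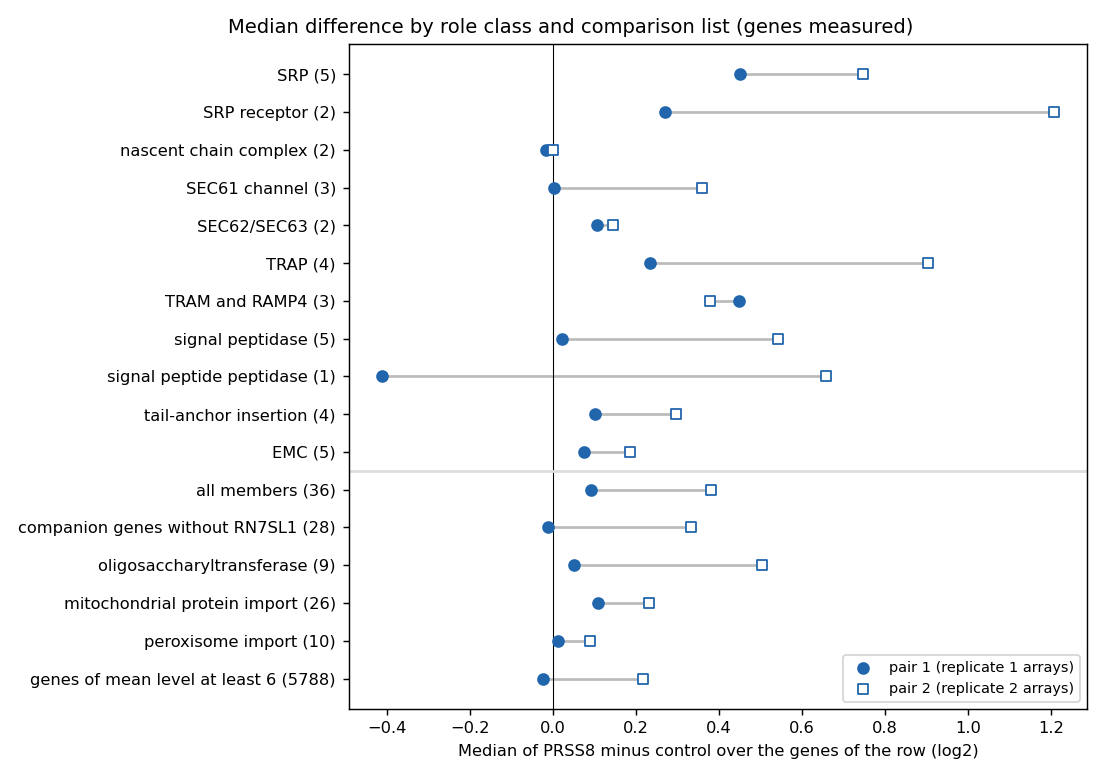
Median of PRSS8 minus control (log2) over the genes of each role class, above the grey line, and of the comparison lists, below it, in pair 1 (filled circles) and pair 2 (open squares), with the number of genes measured in parentheses. Medians of SRP (0.45 and 0.75) and TRAP (0.23 and 0.90) lie to the right of those of genes whose mean level was 6 or more (−0.02 and 0.22), and those of the nascent chain complex lie at 0.

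The core genes (SRP and receptor, SEC61, SEC62, SEC63, TRAP and signal peptidase; 21 measured of 23) had a median difference of 0.52, with 0.23 in pair 1 and 0.75 in pair 2. The other 15 members had a median of 0.14, with 0.07 and 0.29. By class, SRP and its receptor had a median of 0.73 over 7 genes, TRAP 0.57 over 4, signal peptidase 0.50 over 5, and SEC61, SEC62 and SEC63 0.18 over 5. Differences between these medians were not tested. Across the 36 genes Pearson's r between the pair 1 and pair 2 differences was 0.48, across the brighter genes 0.32 and across all genes 0.17; genes on 1 array share its labelling and scanning.

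Further genes of ER entry were counted the same way. Of 28 measured companion genes (more EMC, GET, SPPL and translocon factors) 12 were higher in both pairs, 2 lower in both and 14 took opposite signs, with a median of −0.01 in pair 1 and 0.33 in pair 2. RN7SL1 was left out of these counts after its values were seen. LRRC59, a ribosome-binding protein of the ER membrane, had the largest difference by its brightest probe set. That probe set read 12.03 and 12.21 on the control and 12.75 and 13.26 on the PRSS8 arrays (0.71 and 1.05, mean 0.88, SE 0.70). With probe sets averaged, the LRRC59 difference was 0.55, below the 0.58 of GET3. GET3, the ATPase that carries tail-anchored proteins, read 8.56 and 10.01 against 8.30 and 11.41, with −0.25 and 1.40. TMEM208, an ER protein of a further targeting route, differed by 0.07 and 0.96. Groups did not overlap for LRRC59 and overlapped for GET3 and TMEM208. Both PRSS8 arrays stood above both control arrays in 1 of the 28 companion genes (3.57%) and below both in 1.

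Neighbouring machineries gave context. The oligosaccharyltransferase, which adds sugars at the translocon, had 5 of 9 measured genes higher in both pairs, with medians of 0.05 and 0.50. Genes of mitochondrial protein import had 18 of 26 higher in both pairs (69.2%), beside 66.7% of the ER entry genes, with medians of 0.11 and 0.23 beside 0.09 and 0.38, and 0 of them were 1.5-fold higher in both pairs. Peroxisome import had 6 of 10, with medians of 0.01 and 0.09. Both PRSS8 arrays stood above both control arrays in 4 of the 26 mitochondrial import genes (15.4%), beside 19.4% of the ER entry genes. The same held for 1 of the 9 oligosaccharyltransferase genes and 1 of the 10 peroxisome genes. In each of these 3 lists 0 genes had both PRSS8 arrays below both controls. The ER chaperone gene HSPA5 (BiP), which pulls chains through the channel, read 16.81 and 13.38 on the control and 18.55 and 17.13 on the PRSS8 arrays. Its differences of 1.74 and 3.75 exceeded those of every ER entry gene in the same pair. No test set these lists against each other.

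**Figure D4:**
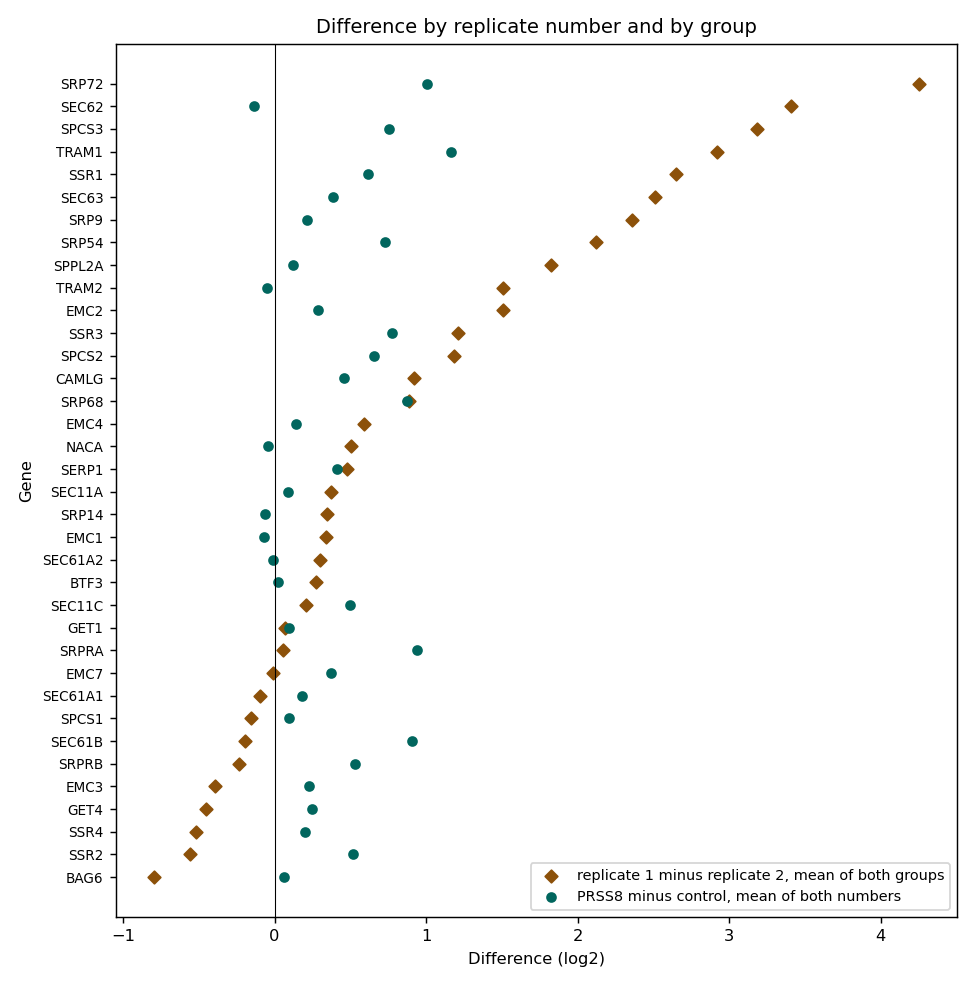
For each of the 36 genes, the difference between replicate numbers (replicate 1 minus replicate 2, mean of the groups; brown diamonds) and between groups (PRSS8 minus control, mean of the numbers; green circles), both on the log2 scale. The replicate difference runs from −0.79 (BAG6) to 4.25 (SRP72), and the group difference from −0.13 (SEC62) to 1.17 (TRAM1).

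The replicate numbers differed in these genes, as they did over the whole array. In 29 of the 36 genes the difference between numbers was larger than that between groups (80.6%), against 84.9% of all genes and 89.0% of the brighter ones. Its median size in the 36 genes was 0.54 against 0.27 between groups, where the brighter genes had 0.88 against 0.17. In 24 genes replicate 1 stood above replicate 2 in both groups (66.7%), compared with 27.4% of all genes and 57.8% of the brighter ones. SRP72 (4.25), SEC62 (3.41), SPCS3 (3.18) and TRAM1 (2.92) had the largest of these differences. The part of replicate number in the differences by group was measured only as the values of each pair. The genes in which the numbers differed by less than the groups were SRPRA, SRPRB, SEC61A1, SEC61B, SEC11C, GET1 and EMC7. These are the 7 genes in which the groups did not overlap; by arithmetic, any gene whose groups do not overlap belongs here.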

How the data were processed

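RNA of 4 HCT116 cultures was measured on Affymetrix whole-transcript arrays. The authors deposited a log2 level for each probe set; the submitters' processing notes name RMA and Affymetrix Expression Console 1.3.1. Joint normalization of the arrays is not stated, detection was not analysed here, and precision is limited by the number of arrays.

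Of 70523 probe sets, 2995 that were not transcript clusters were left out. Of the other 67528, 23781 had 1 gene symbol in GEO's platform annotation, 1543 had several and 42204 had none. Symbols were updated through Entrez identifiers (21497) or a unique older symbol (306), and the brightest probe set stood for each of 22411 genes.

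The groups were compared over all genes with limma 3.58.1 under R 4.3.3 (lmFit, then eBayes allowing an intensity trend, two-sided), with Benjamini-Hochberg adjustment and a threshold of 0.05. The code was tested on simulated data with independent noise and no effect of replicate number, so that test does not describe the fit on these arrays. Counts by pair and of groups that do not overlap have no test. Named were, in each role class, the 2 members of largest difference, members whose groups do not overlap, 3 paralog pairs, members of opposite sign in the pairs and 3 companion genes; other members, RN7SL1, HSPA5 and the genes of the closing section were added after values were seen. The members and lists were chosen with earlier results of these data known. RefSeq promoter windows were searched for 4 motifs on both strands. Alternatives were other variance models, the replicate number as a block, 3 normalizations, a filter on dim genes, averaged probe sets, other fold limits and leaving out each array.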

Additional observations from a re-analysis of the deposited data

How the results depend on the processing

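By limma 0 of the members were called in all 12 alternatives, while over all genes it called 62 without control replicate 1, 8 without control replicate 2 and 0 in the other alternatives. This says nothing about stability, because with all arrays, 2 a group, not even PRSS8 itself was called (limma). Its adjusted p was 1 after rounding in the main fit, which left out the replicate number (limma). With the replicate number as a block it was 0.076 (limma). What limited the calls was not tested. Fits without an array have a group of 1, whose spread is taken to equal that of the remaining group. The replicate numbers were treated as shared numbers only, since the labels do not say what they mark; across genes, deviations of same-numbered arrays from their group means correlated at 0.91. With the replicate number as a block, 0 members were called (smallest adjusted p = 0.94, limma), and 9 members and 1174 of all genes had an unadjusted p under 0.05; the median difference remained 0.27. The count of members higher in both pairs (24) was 5 at 1.5-fold in each pair and 20 to 24 under the other alternatives. After the normalizations it was 22 to 24 (61.1% to 66.7%, against 30.1% to 31.7% of all genes). With the filter it was 20 of 31 members (64.5%, against 38.0% of the brighter genes). In pair 1 alone 26 members were higher (72.2%, against 49.5% of all genes and 45.8% of the brighter ones). In pair 2 alone 33 were (91.7%, against 52.0% and 77.3%). A further alternative, chosen after seeing the data, counted from the median of the genes whose mean level was 6 or more. The count in both pairs was then 20 (55.6%, against 28.9% of those genes), and the median difference was 0.17. The count of members whose PRSS8 arrays stood above both controls (7) was 1 with a gap of at least 1.5-fold (0.0714% of all genes and 0.276% of the brighter ones). It was 5 after quantile normalization (13.9%, against 8.88% of all genes). After median centring it was 7 (19.4% against 9.63%) and after cyclic loess 6 (16.7% against 9.14%). With the filter it was 6 of 31 members (19.4%, against 6.12% of the brighter genes). With an array left out it was 27 without control replicate 1 (24.1% of all genes), 22 without PRSS8 replicate 2 (18.7%), 13 without PRSS8 replicate 1 (33.7%) and 11 without control replicate 2 (35.7%, above the members' 30.6%). The median difference ran from −0.16 (without control replicate 2) to 0.63 (without control replicate 1), with 0.58 without PRSS8 replicate 2 and 0.07 without PRSS8 replicate 1. Such comparisons also contain the replicate numbers, which are then unbalanced.

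Some differences of single genes changed sign. After quantile normalization BTF3 was at −0.083, SEC11A at −0.060 and SEC61A2 at 0.034; after cyclic loess BTF3 was at −0.014, and after median centring SEC61A2 was at 0.018. With an array left out, the range was −1.24 to 3.25 for SRP72, −0.32 to 0.24 for NACA, −0.15 to 0.19 for BTF3, −0.16 to 0.14 for SEC61A2, −1.91 to 1.64 for SEC62, −0.92 to 1.69 for SEC63 and −0.86 to 2.09 for SSR1. It was −0.50 to 2.83 for TRAM1, −0.93 to 0.83 for TRAM2, −0.25 to 1.56 for SPCS2, −1.07 to 2.59 for SPCS3, −0.23 to 0.40 for SEC11A and −1.06 to 1.30 for SPPL2A. It was −0.0038 to 0.50 for GET4, −0.11 to 1.03 for CAMLG, −0.52 to 1.09 for EMC2, −0.98 to 2.13 for GET3 and −0.11 to 1.14 for TMEM208. The 10 members and LRRC59 that kept their sign ran from 0.69 to 1.13 (SEC61B), 0.56 to 1.33 (SRPRA), 0.30 to 0.76 (SRPRB), 0.37 to 0.62 (SEC11C), 0.22 to 1.53 (SRP68), 0.11 to 1.44 (SSR3), 0.16 to 0.67 (SERP1), 0.04 to 0.32 (SEC61A1), 0.02 to 0.18 (GET1), 0.22 to 0.53 (EMC7) and 0.63 to 1.14 (LRRC59). Except in SRP68, SSR3 and SERP1, that sign was fixed in advance, because the groups did not overlap.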

Other observations

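Outside the 36 members, 3 genes of the same membrane also had large differences between the replicate numbers; they were chosen after their values were seen. KTN1, a kinesin-binding protein of the ER, read 11.64 and 6.11 on the control arrays and 11.15 and 6.11 on the PRSS8 arrays. CCDC47, a translocon-associated protein that works in multipass membrane insertion, read 12.86 and 7.82 against 12.61 and 8.48. STT3B, a catalytic subunit of the oligosaccharyltransferase, read 12.98 and 8.61 against 13.03 and 9.68. In each of them both replicate 1 arrays stood above both replicate 2 arrays by more than 3, while the differences between groups within a pair ran from −0.49 to 1.08.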
